A study of Mus musculus with 9 samples.

Results

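The 9 genes described here encode mRNA decay regulators of 3 families: Zfp36, Zfp36l1 and Zfp36l2; the Regnase genes Zc3h12a and Zc3h12c; and Btg1, Btg2, Tob1 and Tob2. They were taken by symbol from the 22180 genes that had a probe set with 1 gene symbol, and all 9 were found. The 9 genes had 10 probe sets between them, and where a gene had more than 1 (Zfp36l1 alone) the brighter was used, selected on its average across the 9 arrays. Differences between groups did not enter it, but the genes were picked with earlier results of these data known, so their p-values are not independent evidence.

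Zfp36 proteins, of which the protein of Zfp36 itself is tristetraprolin, bind AU-rich elements in short-lived mRNA and bring in the CCR4-NOT complex, which shortens the poly(A) tail. Regnase-1, the product of Zc3h12a, is an endonuclease that cuts stem-loops in mRNA of inflammatory genes, and the product of Zc3h12c is its relative Regnase-3. BTG and TOB proteins bind the catalytic subunits of CCR4-NOT and slow proliferation, and TOB proteins also bind poly(A)-binding protein. Zfp36 and Btg2 are in addition classic immediate-early genes of fibroblasts, transcribed soon after a stimulus.

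All arrays held total RNA of hMLKL1-181-2Fv-NIH3T3 cells, a mouse fibroblast line carrying a part of human MLKL, the pseudokinase whose oligomers breach the cell membrane during necroptosis, fused to Fv domains that the compound B/B brings together. The 3 control samples had control treatment, 3 samples were sorted annexin V-positive (AnnV+) cells after 1 h of 50 nM B/B, and 3 were such sorted cells after a further 6 h of washout, given in the design as 3000 nM of a compound it does not name. Annexin V binds phosphatidylserine exposed on the cell surface. Every group carried the fusion gene, so no group shows the parental line. The promoter of the fusion gene, whether the line is 1 clone, whether control cells were sorted and when they were harvested are not given in the labels. Effects of B/B, of the sort and of time in culture cannot be told apart wherever control is the reference. Between the 2 sorted groups, effects of the washout compound and of the further 6 h cannot be told apart either. Nothing in the labels ties the 3 samples of a group to separate cultures, and p-values therefore measure the spread between these samples, which may be technical.

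Values are log2 probe set values normalized by the authors, with array medians from 4.60 to 4.68, and base 2 was inferred from their range. Within a group, array pairs correlated at 0.998 to 0.999 over genes, a description since genes are no replicates. The fibroblast markers Vim, Fn1, Col1a1 and Thy1 had mean log2 values of 12.93, 11.99, 10.10 and 9.47, while Lum and Postn were in the lowest 30% of genes. Over the 12 fibroblast markers the mean level was 8.95 to 8.97 on control arrays, 8.94 to 8.99 at 1 h and 8.55 to 8.60 after washout, when 7 markers were lower and 1 higher (limma). Over 12 measured leukocyte markers it was 4.99 to 5.03, 5.16 to 5.22 and 5.13 to 5.14, with Ptprc, Cd3e, Itgam, Lyz2 and Adgre1 in the lowest 30% of genes. The mean levels of epithelial markers lay between 4.66 and 4.80 and those of endothelial markers between 4.39 and 4.59 on all arrays. At 1 h 4 leukocyte markers rose (Cd14, Cd68, Cd79a and Adgre1), and the part of these shifts in the results below was not tested. Each array measured a whole population, so fewer cells with a transcript and less of it per cell cannot be told apart.

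The stretches upstream of the 4 regulators that rose at 1 h are shown because these genes moved together there. Each is the 250 bases before the RefSeq transcript start on the gene's strand (GRCm38.p6), written 5′ to 3′. The promoter set used here held 9 such stretches for 8 of the 9 genes and none for Zfp36l2, which was not searched. Capitals mark a CArG box, the site of serum response factor, in Zfp36; a cAMP response element (TGACGTCA) in Btg2; and an AP-1 site (TGANTCA) in Zfp36l1. Both strands were searched.
Zfp36, chr7:28379229-28379478, minus strand: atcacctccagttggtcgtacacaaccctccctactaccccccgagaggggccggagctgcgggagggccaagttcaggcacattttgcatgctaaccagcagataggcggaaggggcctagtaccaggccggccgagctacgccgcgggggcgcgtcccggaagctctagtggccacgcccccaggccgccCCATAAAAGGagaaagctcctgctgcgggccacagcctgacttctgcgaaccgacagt
Btg2, chr1:134079156-134079405, minus strand: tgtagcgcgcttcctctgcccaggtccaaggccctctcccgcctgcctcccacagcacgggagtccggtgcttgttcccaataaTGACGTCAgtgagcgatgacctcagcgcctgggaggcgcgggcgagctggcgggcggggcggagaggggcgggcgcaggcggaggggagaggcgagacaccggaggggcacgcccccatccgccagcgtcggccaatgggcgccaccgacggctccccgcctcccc
Zfp36l1, chr12:80113014-80113263, minus strand: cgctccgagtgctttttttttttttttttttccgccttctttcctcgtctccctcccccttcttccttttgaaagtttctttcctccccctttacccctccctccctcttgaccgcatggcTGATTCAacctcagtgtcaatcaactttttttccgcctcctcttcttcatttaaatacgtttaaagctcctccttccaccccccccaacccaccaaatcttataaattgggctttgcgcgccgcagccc
Btg1, chr10:96616751-96617000, plus strand: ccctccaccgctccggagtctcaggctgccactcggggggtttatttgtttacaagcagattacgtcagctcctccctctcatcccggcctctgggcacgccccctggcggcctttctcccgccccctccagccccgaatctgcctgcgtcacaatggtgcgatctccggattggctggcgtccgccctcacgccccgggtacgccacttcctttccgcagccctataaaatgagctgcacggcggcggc
The CArG box of Zfp36 spanned bases 58 to 49 before the start, the element of Btg2 bases 166 to 159 and the AP-1 match of Zfp36l1 bases 129 to 123. Of 32851 upstream stretches of this length, 1.47% held a CArG box, 1.55% the cAMP response element and 6.75% the AP-1 site. None of these 3 was found upstream of Btg1, Zc3h12a, Zc3h12c, Tob1 or Tob2. A loose NF-kB motif was searched too: 45.8% of all stretches held it, as did those of 7 of the 8 genes, all but Zfp36l1, and it is left in lower case. A match is a description of the letters and not a measured site.

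The comparison of B/B 1 h AnnV+ cells with control asked how these regulators stood while cells exposed phosphatidylserine. Of the 9 genes, 4 rose (Btg2, Zfp36, Zfp36l1 and Btg1), 1 fell (Zfp36l2) and 4 did not pass the threshold of a limma adjusted p under 0.05. Over all 22180 genes 2.89% passed at 1 h, 1.01% higher and 1.88% lower. The share of called genes that were higher, 34.9%, became 48.0% after quantile normalization and 46.1% when control replicate 3 was omitted. Groups did not overlap in 7 of the 9 genes, 4 higher and 3 lower, as in 21.3% of all genes. The median log2 difference was 0.10 for the 9 genes and 0.00 for all genes.

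After 6 h of washout all 9 genes differed from control, 8 of them lower and Zc3h12c higher. In this comparison 26.2% of all genes passed, 14.5% higher and 11.7% lower, and the median log2 difference was -0.58 for the 9 genes against 0.00 for all genes. Shares over all genes, in each comparison, include dim genes and are not matched for level. By mean level the 9 genes lay at percentiles 64.48 (Tob2) to 98.35 (Zfp36l2) of all genes. With the lowest 30% of genes left out, 6078 genes passed after washout against control, where 5814 of all 22180 did. More genes thus passed out of fewer tested, so the share without dim genes was above 26.2%. The groups did not overlap in any of the 9 genes, as in 38.0% of all genes (20.2% higher and 17.8% lower). Both comparisons use the same control arrays, so their values are given side by side below and not counted as separate evidence. Between the sorted groups, washout against B/B 1 h, 8 of the 9 were lower and Zc3h12c was higher, where 28.6% of all genes passed. Those groups did not overlap in any of the 9 either, as in 39.6% of all genes (21.1% higher and 18.4% lower).

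**Figure D1:**
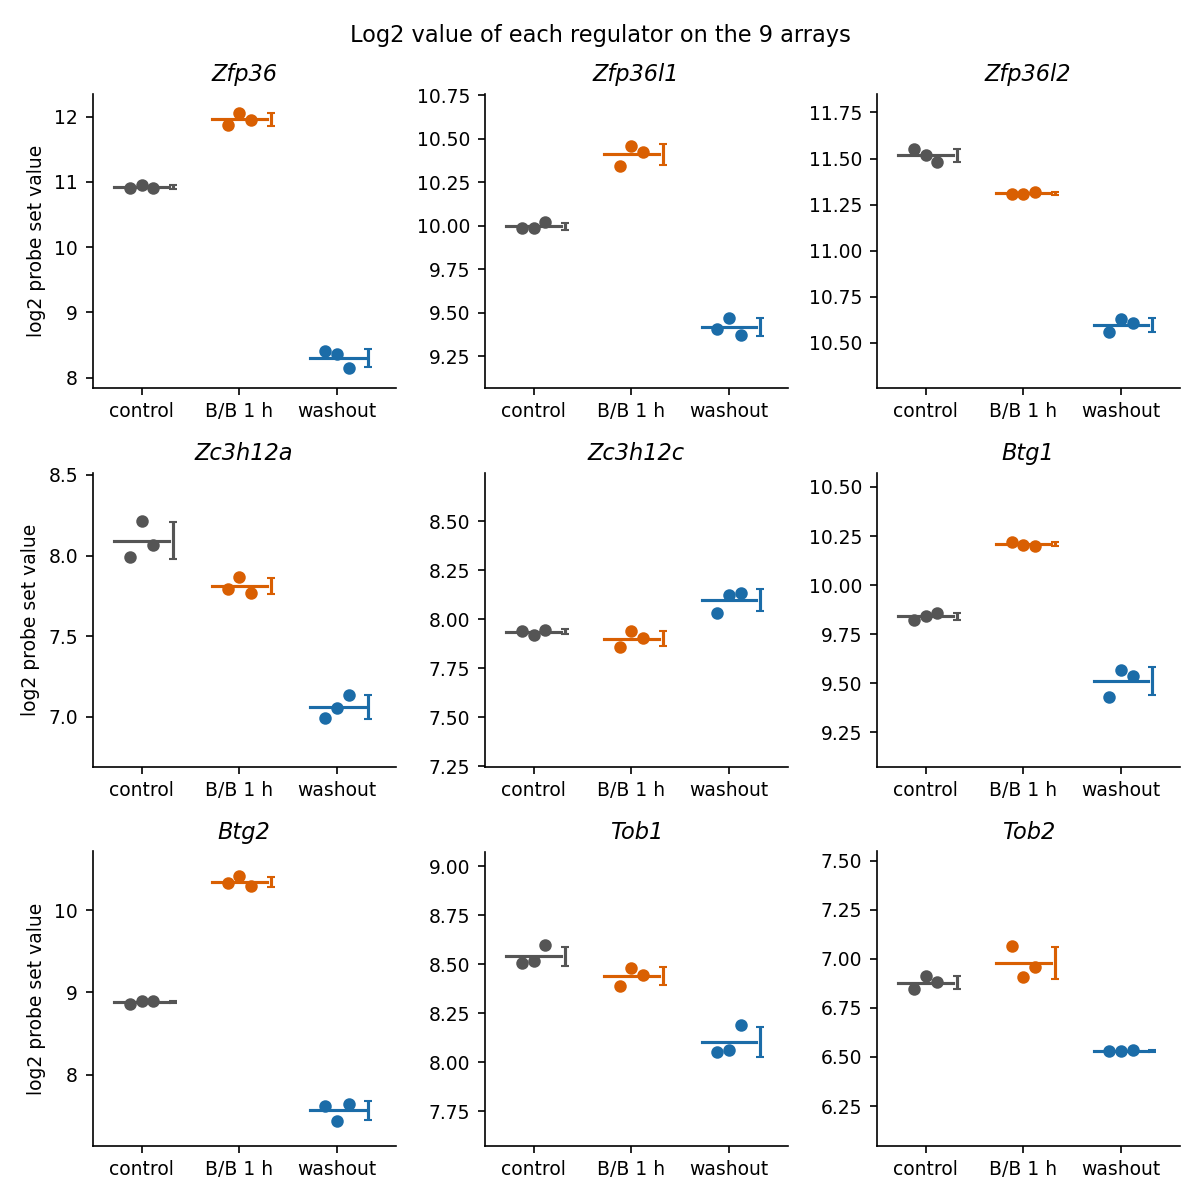
Log2 probe set value (y axis, a separate range in each panel) of the 9 regulators on each array of the 3 groups (x axis); points are arrays, lines are means and bars are SD (n = 3 per group). Zfp36, Zfp36l1, Btg1 and Btg2 are highest at 1 h and lowest after washout, and Zc3h12c is the gene that is highest after washout.

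Zfp36 encodes a protein that promotes the decay of AU-rich cytokine and immediate-early transcripts. The gene read 10.91, 10.95 and 10.91 on the control arrays, 11.87, 12.06 and 11.95 at 1 h and 8.40, 8.37 and 8.15 after washout (log2). The 3 groups did not overlap, with the 1 h arrays highest and the washout arrays lowest. It rose by 1.04 ± 0.073 at 1 h (log2, SE; 2.05-fold; limma adjusted p 7.25e-05), rank 22 from the highest of 22180 differences. After washout it stood at 16.3% of the control level (log2 difference -2.62 ± 0.073, SE; limma adjusted p 2.93e-08), which was rank 1 from the lowest. Between the sorted groups the level fell 12.6-fold (log2 difference -3.65; limma adjusted p 2.14e-09).

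Zfp36l1, a paralog with the same AU-rich target preference, read 9.98, 9.98 and 10.02 in control, 10.35, 10.46 and 10.42 at 1 h and 9.41, 9.47 and 9.37 after washout (log2). Its 3 groups followed the same order as those of Zfp36 without overlap, over a narrower range. The gene rose 1.33-fold at 1 h (log2 difference 0.41 ± 0.047, SE; limma adjusted p 0.00153) and fell to 66.9% of control after washout (log2 difference -0.58 ± 0.047, SE; limma adjusted p 1.61e-05). Its second, dimmer probe set, with a mean of 5.36 against 9.94, gave log2 differences of 0.14 ± 0.10 at 1 h and -0.86 ± 0.10 after washout (SE; limma adjusted p over 23521 probe sets 0.515 and 2.08e-04). With both probe sets averaged the 1 h rise was 0.28 (limma adjusted p 0.0463; 3.82e-05 to 0.0463 over its alternatives).

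Zfp36l2, the third AU-rich binding paralog here, read 11.55, 11.52 and 11.48 in control, 11.31, 11.31 and 11.32 at 1 h and 10.56, 10.63 and 10.61 after washout (log2). Unlike its paralogs it was lower on all 1 h arrays than on any control array, and lower again after washout. The 1 h decrease to 86.6% of control (log2 difference -0.21 ± 0.041, SE; limma adjusted p 0.0295) was close to the threshold. The call was lost without control replicate 1, 2 or 3 (limma adjusted p 0.0946, 0.0828 and 0.0588) or any 1 of the B/B 1 h arrays (0.0752, 0.0793 and 0.0537) and with only the 2 groups in the fit (0.0703), within 5.74e-04 to 0.0946 over its alternatives. After washout Zfp36l2 fell to 52.9% of control (log2 difference -0.92 ± 0.041, SE; limma adjusted p 4.50e-07).

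**Figure D2:**
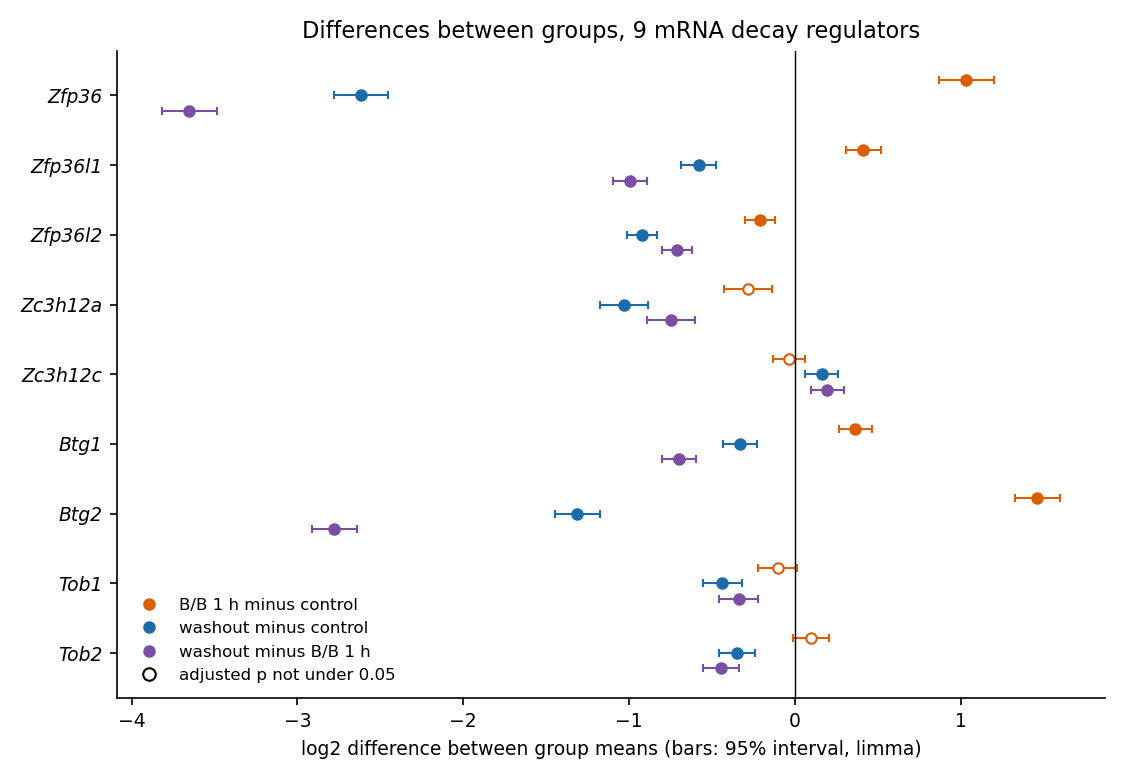
Log2 differences between group means (x axis) for each of the 9 regulators (y axis), with 95% intervals from limma; filled points passed an adjusted p under 0.05 and open points did not. Zfp36 and Btg2 lie farthest from 0 in each of the 3 comparisons. Against control they are at 1.04 and 1.46 at 1 h and at -2.62 and -1.31 after washout. For washout against B/B 1 h they are at -3.65 and -2.78.

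Btg2, an antiproliferative CCR4-NOT recruiter that p53 and growth factors induce, read 8.86, 8.89 and 8.89 in control, 10.33, 10.41 and 10.29 at 1 h and 7.62, 7.44 and 7.64 after washout (log2). The gap between the lowest 1 h array and the highest control array was 1.40, and washout arrays lay at least 1.22 below control arrays. At 1 h Btg2 rose 2.76-fold (log2 difference 1.46 ± 0.060, SE; limma adjusted p 2.42e-06), rank 9 from the highest. After washout it was at 40.2% of control (log2 difference -1.31 ± 0.060, SE; limma adjusted p 5.79e-07), rank 34 from the lowest, and 6.85-fold below the 1 h level.

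Btg1, its closest relative, read 9.82, 9.84 and 9.86 in control, 10.22, 10.20 and 10.20 at 1 h and 9.43, 9.57 and 9.54 after washout (log2). These groups too were in the order 1 h, control, washout without overlap. Btg1 rose 1.29-fold at 1 h (log2 difference 0.37 ± 0.046, SE; limma adjusted p 0.00277) and fell to 79.5% of control after washout (log2 difference -0.33 ± 0.046, SE; limma adjusted p 4.49e-04).

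Tob1, which links poly(A)-binding protein to deadenylases, read 8.51, 8.52 and 8.60 in control, 8.39, 8.48 and 8.45 at 1 h and 8.05, 8.06 and 8.19 after washout (log2). Its highest 1 h array lay 0.03 below the lowest control array, and the difference did not pass (log2 difference -0.10, 95% interval -0.22 to 0.02; limma adjusted p 0.338). After washout Tob1 fell to 73.8% of control (log2 difference -0.44 ± 0.052, SE; limma adjusted p 1.84e-04). Tob2, its paralog, read 6.84, 6.91 and 6.88, then 7.07, 6.91 and 6.96, then 6.53, 6.53 and 6.54 in the same groups. Control and 1 h arrays of Tob2 overlapped (log2 difference 0.10, 95% interval -0.01 to 0.21; limma adjusted p 0.318), and the gene fell to 78.5% of control after washout (log2 difference -0.35 ± 0.048, SE; limma adjusted p 4.70e-04).

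Zc3h12a, the Regnase-1 gene, read 7.99, 8.22 and 8.07 in control, 7.79, 7.86 and 7.77 at 1 h and 6.99, 7.06 and 7.14 after washout (log2). The 1 h arrays were all below the control arrays but the difference missed the threshold (log2 difference -0.28, 95% interval -0.43 to -0.14; limma adjusted p 0.0526). It passed with the lowest 30% of genes left out (limma adjusted p 0.0343) and with a mean-variance trend (0.0238), within 0.0238 to 0.139 over its alternatives. After washout Zc3h12a fell to 48.9% of control (log2 difference -1.03 ± 0.065, SE; limma adjusted p 3.56e-06), rank 83 from the lowest.

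Zc3h12c, the Regnase-3 gene, read 7.94, 7.92 and 7.95 in control, 7.86, 7.94 and 7.90 at 1 h and 8.03, 8.12 and 8.14 after washout (log2). Control and 1 h arrays overlapped (log2 difference -0.03, 95% interval -0.13 to 0.06; limma adjusted p 0.717), and with quantile normalization the sign turned, to 0.02. After washout it was the 1 regulator that rose, by 1.12-fold (log2 difference 0.16 ± 0.044, SE; limma adjusted p 0.0217). That call was lost without control replicate 1 or 2 (limma adjusted p 0.0535 and 0.0668) and without washout replicate 2 or 3 (0.0717 and 0.0764), within 0.0123 to 0.0764 over its alternatives. Against the 1 h arrays Zc3h12c was 1.15-fold higher (limma adjusted p 0.00744).

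Changes were also compared between members of a family, in a design whose exact test cannot go below p 0.1. Probe levels of different genes are not comparable, so only changes of a within-array difference are read. The log2 difference of Zfp36 over Zfp36l2 went from -0.65 to -0.57 in control to 0.56 to 0.75 at 1 h and -2.46 to -2.15 after washout. That of Btg2 over Btg1 changed by 1.10 ± 0.037 at 1 h and by -0.98 ± 0.097 after washout (log2, SE), and that of Zfp36 over Zfp36l1 by 0.62 ± 0.032 and -2.04 ± 0.067. For Zc3h12a over Zc3h12c the changes were -0.25 ± 0.075 and -1.19 ± 0.074, and for Tob1 over Tob2 -0.20 ± 0.080 and -0.09 ± 0.053. Among these 5 pairs and 2 comparisons with control, 9 of the 10 changes separated the arrays of both groups and gave an exact two-sided permutation p of 0.1, the smallest that 3 against 3 arrays allow. The exception was Tob1 over Tob2 after washout (exact p 0.2), and adjusted over the 10 tests the exact p was 0.111 for the other 9. Among all single genes 21.3% separated from control at 1 h and 38.0% after washout, and the share over other gene pairs was not computed. The pairs reuse the values given above and are not separate evidence.

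Of the general mRNA decay machinery, 54 genes in 4 lists were measured. At 1 h 4 of the 54 passed, all exosome genes and all lower: Exosc7 at -0.39, Exosc2 at -0.33, the catalytic subunit gene Dis3 at -0.25 and Exosc9 at -0.21 (log2), the last outside the naming rule, where 2.89% of all genes passed. That count was 2 without control replicate 1 or any 1 washout array, 1 without control replicate 2 or 3 or B/B 1 h replicate 1 or 2, and 2 with quantile normalization. Of 13 deadenylase genes, 20 of decapping and 5′ to 3′ decay and 7 of nonsense-mediated decay, 0 passed at 1 h in limma, and at unadjusted p under 0.05 there were 2 higher and 2 lower, 1 higher, and 1 lower. After washout 33 of the 54 passed, 17 higher and 16 lower (61.1%, against 26.2% of all genes), none by 2-fold, with a median log2 difference of 0.04. That share of all genes includes dim genes and is not matched for level.

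**Figure D3:**
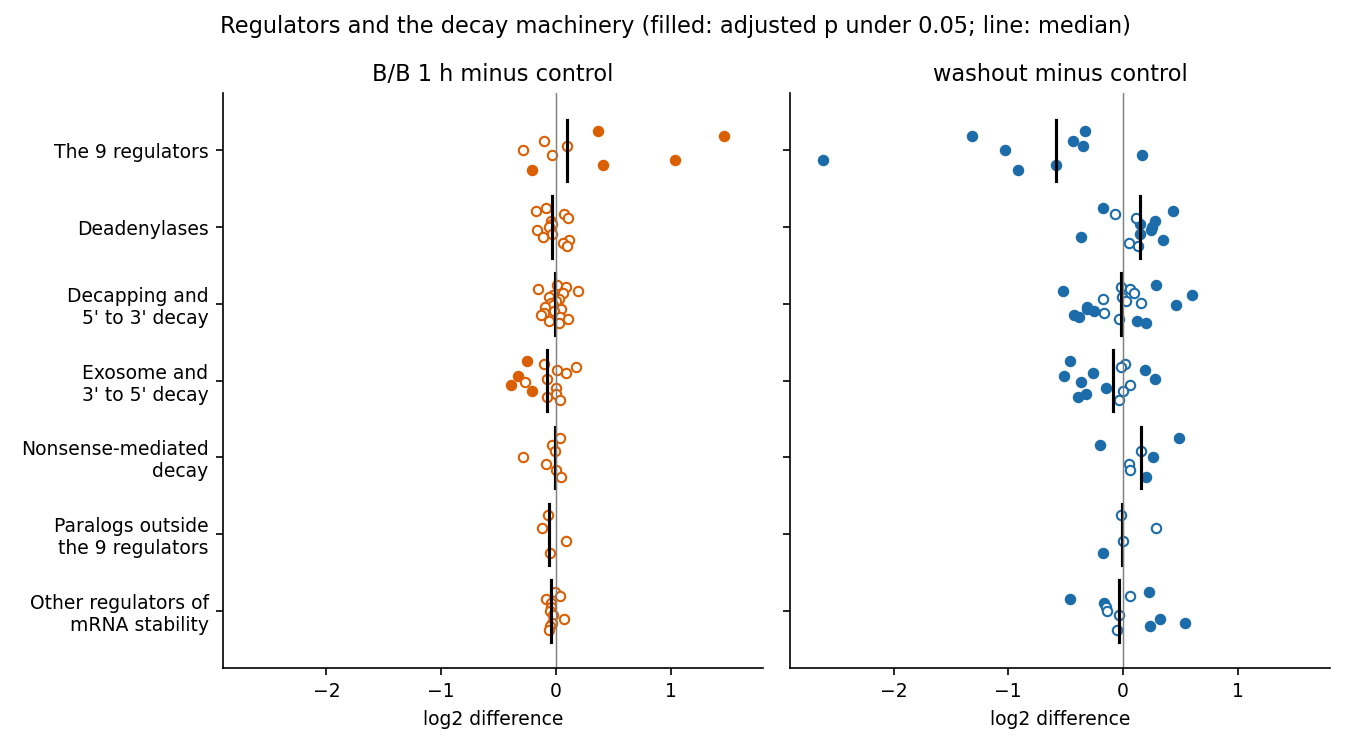
Log2 difference from control (x axis) at 1 h (left) and after washout (right) for the 9 regulators, 4 machinery lists, the measured paralogs and other stability regulators (y axis); each point is a gene, filled where the limma adjusted p was under 0.05, and lines are medians. After washout the regulators have a median of -0.58 and the deadenylase genes of 0.14.

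Deadenylase genes had 7 higher and 2 lower of 13 after washout, with 15 listed and Cnot1 and Cnot3 not measured. Over all genes 14.5% were higher and 11.7% lower in this comparison with control. Cnot11, a CCR4-NOT subunit gene, rose by 0.43 ± 0.053 and Pan2, a catalytic subunit of the other cytoplasmic deadenylase, by 0.35 ± 0.044 (log2, SE). Cnot7 and Cnot8, the catalytic partners of BTG and TOB proteins, rose by 0.25 and 0.24; these genes were singled out with their values known. Noct, a circadian relative of the deadenylases, fell by 0.36 ± 0.057 (log2, SE). The count of 9 was 5 without washout replicate 3. Of decapping and 5′ to 3′ decay genes, 5 were higher and 6 lower of 20 after washout, among them Edc3, an enhancer of decapping, at 0.60 ± 0.091, Lsm14b at 0.46 ± 0.045 and the scavenger decapping enzyme gene Dcps at -0.53 ± 0.062 (log2, SE).

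Exosome genes had 2 higher and 7 lower of 14 after washout, where 14.5% of all genes were higher and 11.7% lower. Among the lower were Exosc2 at -0.52 ± 0.070, Dis3 at -0.47 ± 0.039 and Ttc37 at -0.40 ± 0.042 (log2, SE). Ttc37 encodes a subunit of the Ski complex that feeds the exosome. In nonsense-mediated decay, whose helicase UPF1 also works with Regnase-1, 3 were higher and 1 lower of 7. These were the kinase gene Smg1 at 0.49 ± 0.062, Smg8 at 0.26 ± 0.074, Upf2 at 0.20, named with its value known, and Smg5 at -0.20 ± 0.044 (log2, SE), and 2 passed without control replicate 2. Medians after washout were 0.14 for deadenylases, -0.02 for decapping, -0.09 for the exosome and 0.16 for nonsense-mediated decay, against 0.00 for all genes.

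Of 4 measured paralogs outside the 9 regulators, 0 passed at 1 h in limma, also at unadjusted p under 0.05, and 1 passed after washout, a share near the 26.2% of all genes. Zfp36l3 (4.67 to 4.98 over all arrays), Zc3h12d (4.61 to 5.01) and Btg4 (3.57 to 3.71) read near or below the array medians of 4.60 to 4.68. After washout Zfp36l3 stood at -0.17 ± 0.053 (log2, SE; limma adjusted p 0.0358) and Zc3h12b, which did not pass, at 0.29 ± 0.11 (limma adjusted p 0.0785). The Zfp36l3 call was lost with quantile normalization, with centred array medians, and on leaving out B/B 1 h replicate 3, control replicate 2 or any 1 washout array. Zc3h12d and Btg4 had log2 differences of 0.00 and -0.02. Of 11 other regulators of mRNA stability, 0 passed at 1 h in limma, also at unadjusted p under 0.05, and 4 were higher and 2 lower after washout, where 26.2% of all genes passed. The Roquin genes Rc3h2 and Rc3h1, whose proteins bind stem-loops that Regnase-1 also targets, rose by 0.54 ± 0.052 and 0.32 ± 0.039, and Hnrnpd, which encodes the AU-rich binding protein AUF1, fell by 0.47 ± 0.042 (log2, SE).

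Transcripts known as targets were listed for both kinds of protein. Of 20 known targets of Zfp36 proteins, 7 were higher and 1 lower at 1 h, where 1.01% of all genes were higher and 1.88% lower. Cxcl1, a neutrophil chemokine gene, read 6.46, 6.14 and 6.56 in control, 9.29, 9.34 and 9.39 at 1 h and 5.98, 6.17 and 6.13 after washout (log2). Its washout arrays overlapped the control arrays. Fos read 6.97, 6.95 and 6.98, then 8.93, 8.94 and 8.88, then 4.94, 4.66 and 4.57 in these groups, and so ended below control as Zfp36 did. Dusp1, a MAP kinase phosphatase gene, rose by 0.96 ± 0.048 at 1 h (log2, SE), and the angiogenic factor gene Vegfa was the 1 that was lower, at -0.32, also named with its value known.

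After washout, with Zfp36 at its lowest, 6 of the 20 targets were above control and 6 below, with a median log2 difference of -0.04, where 14.5% of all genes were higher and 11.7% lower. Fos, the stress-induced gene Ier3 and the monocyte chemokine gene Ccl2 were lowest, at -2.24 ± 0.082, -0.98 ± 0.065 and -0.65 ± 0.058 (log2, SE). The cytokine gene Il6 read 4.17, 3.79 and 3.89 in control, 4.17 on all 1 h arrays and 4.21, 4.60 and 4.76 after washout (log2). These values lie around or below the array medians and were not shown to be above background, so the size of its difference is uncertain. Tnf, Csf2, Il10, Il1b and Ccl3 were likewise low, with group means of at most 4.65. Il23a, among those above control, had group means of 4.74 in control and 5.27 after washout. The counts and median of this list thus include genes not shown to be expressed. Of 11 known targets of Regnase-1, 5 of which are also on the Zfp36 list, 3 were higher at 1 h in limma, Cxcl1, Nfkbiz and Cxcl2, with 0 lower also at unadjusted p under 0.05, against 1.01% higher among all genes. Nfkbiz, an IkB-like co-regulator of cytokine genes, rose by 1.31 ± 0.061 and then stood at -0.45 ± 0.061 after washout (log2, SE). Rel, an NF-kB subunit gene, stood at -0.53 ± 0.048 and Il6, at the low levels above, at 0.58 ± 0.14 after washout (log2, SE), when 3 of the 11 were higher and 2 lower, against 14.5% and 11.7% of all genes. Il1b, Il2, Il12b, Lcn2 and Cxcl3 on the Regnase-1 list were low as well, with group means from 2.80 to 4.87. Decay rates were not measured, so the values of all these targets are levels only.

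Genes with the most similar course were found by the distance between values on the 9 arrays, each gene centred on its own mean, among all genes but the 9 and predicted-gene names. Nearest to Zfp36 were Egr1 at a distance of 0.39, Fos at 1.15 and Fosb at 1.15, all immediate-early transcription factor genes. Egr1 had log2 differences of 0.95 at 1 h and -2.55 after washout, against 1.04 and -2.62 for Zfp36. Nearest to Btg2 were Mir27a at 0.69, Tcim at 0.69 and Nfkbia, the gene of the inhibitor IkB-alpha, at 0.86. Nfkbia rose by 1.03 at 1 h and stood at -1.07 after washout. Ptp4a1, Hspg2 and Plk2 were nearest to Zfp36l1, at 0.28 each, and Ppp1r10, Chka and Fam43a to Btg1, at 0.11 to 0.18.

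The other regulators had neighbours of their own. Loxl1, a collagen-crosslinking enzyme gene, Klf9 and Tinagl1 were nearest to Zfp36l2, at 0.11 to 0.14, with Loxl1 at -0.20 and -0.87 where Zfp36l2 was at -0.21 and -0.92 (log2). Ccn4, Masp1 and the mitotic inhibitor kinase gene Wee1 were nearest to Zc3h12a, at 0.16 to 0.24. Thop1, Ndufs8 and Mrps15 were nearest to Tob1, Atxn7l1, Dtd1 and Dnmt1 to Tob2, and Aacs, Tti1 and Asns to Zc3h12c. Distances for these last 3 regulators were 0.06 to 0.11, over a smaller range of values, so they cannot be set against those of Zfp36 or Btg2. With 9 arrays in 3 groups a short distance describes 3 group means and little more.

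**Figure D4:**
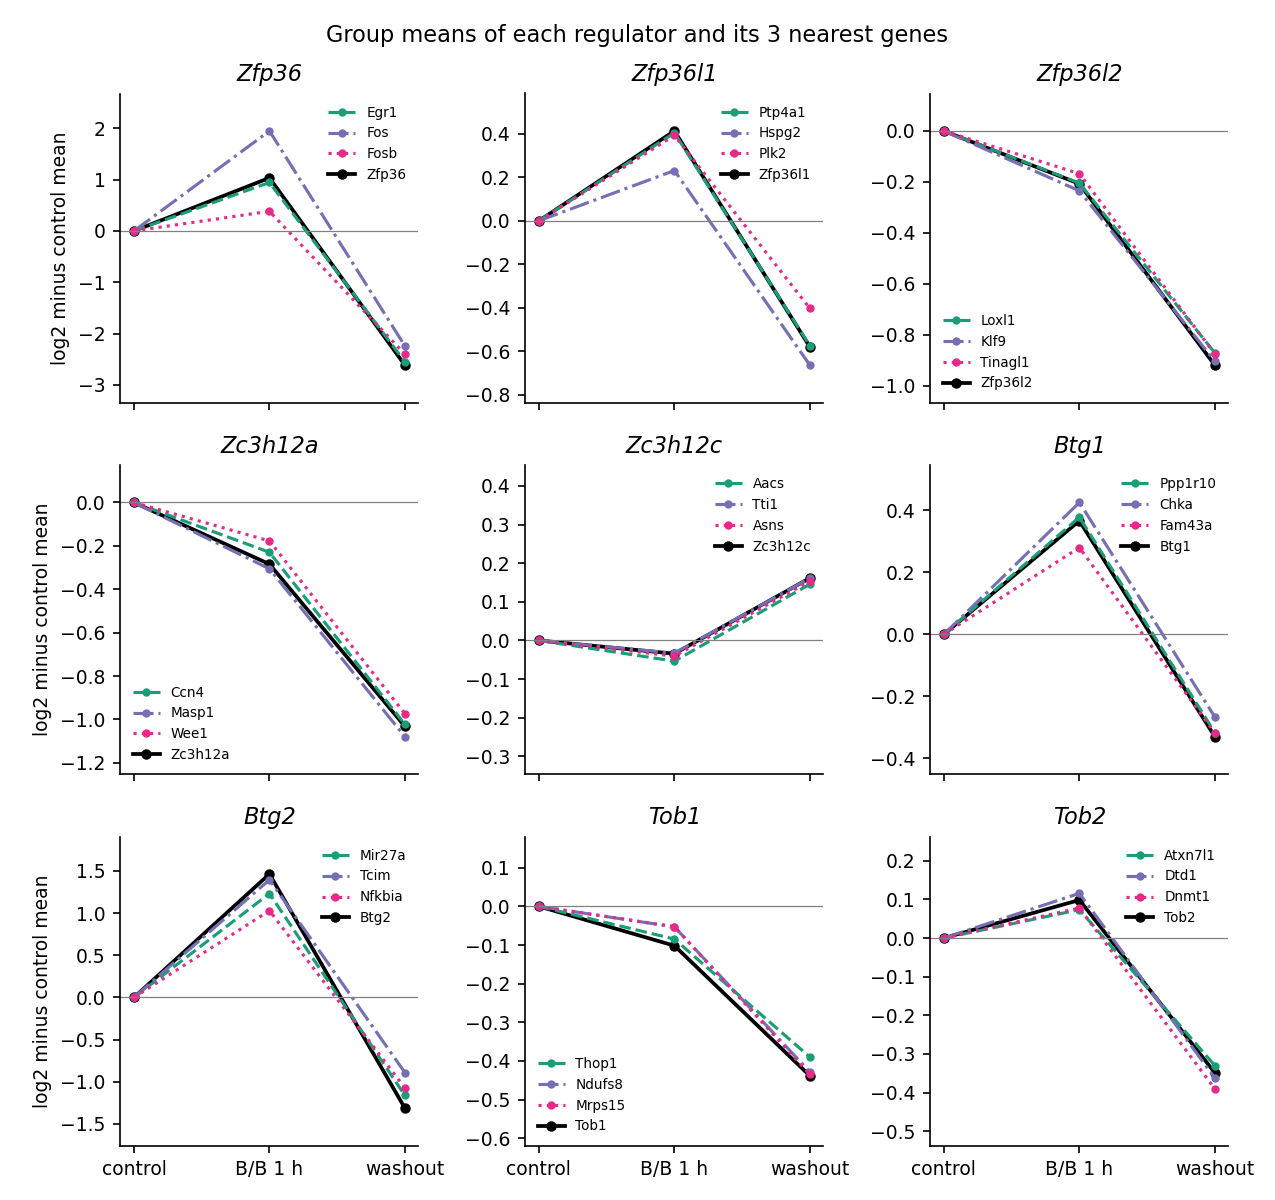
Group means relative to the control mean (log2, y axis) of each of the 9 regulators (black line) and the 3 genes nearest to it over the 9 arrays (coloured lines), for the 3 groups (x axis); each panel has its own range. Egr1 follows Zfp36 at a distance of 0.39, while Fos is higher at 1 h, at 1.95, and Fosb lower, at 0.38.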

How the data were processed

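Trizol RNA was hybridized as biotinylated cRNA to one-colour Affymetrix arrays, per the labels' protocols. The submitters' processing notes name Partek 6.6; the summarization and normalization methods are not given in the sources used here. Deposited by the authors are log2 probe set values, already normalized between arrays as their near-equal quartiles show, with base 2 inferred from a maximum of 13.2. A single gene symbol was available for 23521 of the 41345 probe sets, several for 1814 and no symbol for 16010. Each of the 22180 genes was represented by its probe set with the highest mean.

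Group means were compared over all 9 arrays in limma 3.58.1 (R 4.3.3), with 6 residual and 3.38 prior degrees of freedom, two-sided, and Benjamini-Hochberg adjustment over all genes within each of 3 comparisons. The threshold was an adjusted p under 0.05. Paralog pairs were tested by exact permutation in SciPy 1.17.1. The code was tested on simulated data, where all changes of 2-fold were recovered and smaller ones only in part. Intervals are at the 95% level, and 3 arrays per group limit the precision.

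Named were the 9 regulators, up to 3 called genes per list and comparison with the largest differences, every measured paralog, and the 3 genes nearest to each regulator. The regulators and lists were chosen with earlier results of these data known. Alternatives were quantile normalization, centred array medians, averaged probe sets, omission of the lowest 30% of genes, array weights, a mean-variance trend, only the 2 groups compared, and each array left out in turn. Some listed genes were not analysed here, among them Btg3 and the CCR4-NOT genes Cnot1 and Cnot3.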

Additional observations from a re-analysis of the deposited data

How the results depend on the processing

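Of 432 recomputed log2 differences of the 9 regulators (27 differences under 16 alternatives each), 418 kept direction and side of the threshold. Losses of the call numbered 11 (Zfp36l2 at 1 h 7 times, Zc3h12c after washout against control 4 times), Zc3h12a at 1 h passed under 2 alternatives, and Zc3h12c at 1 h turned from -0.03 to 0.023 with quantile normalization. The count of regulators called was 4 to 6 at 1 h, 8 to 9 after washout and 9 between sorted groups. The 642 genes called at 1 h became 1228 with a mean-variance trend, 359 with only the 2 groups compared, and 323 to 691 with 1 array left out. Leaving out control replicate 1 gave 376, control replicate 2 gave 372 and control replicate 3 gave 323, while B/B 1 h replicate 1 gave 369 and B/B 1 h replicate 2 gave 422. The cause was not tested.

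Counts in the lists moved as follows. Exosome genes at 1 h numbered 4, and 1 to 2 under 9 of 13 alternatives. Single genes were gained among deadenylases (0 to 1, without control replicate 1) and decapping genes (0 to 1, without B/B 1 h replicate 1) at 1 h. The 1 kinase gene called at 1 h was lost without control replicate 1 or 3 or B/B 1 h replicate 2. After washout the 9 deadenylases were 5 without washout replicate 3 and the 4 genes of nonsense-mediated decay 2 without control replicate 2. The 1 paralog called was 0 under 7 alternatives and 2 without B/B 1 h replicate 1. Between sorted groups the 13 decapping genes were 8 and the 5 kinase and protease genes 3 without washout replicate 1. The 3 of nonsense-mediated decay were 5 without control replicate 3 or without dim genes, and the 1 paralog was 0 without B/B 1 h replicate 1 or washout replicate 3. No paired analysis was possible because the labels give no replicate numbers. The replicate numbers used here follow the order of the samples within each group and do not match samples across groups. With 3 arrays per group, and no detection calls used here, differences of a few hundredths on the log2 scale cannot be resolved.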

Other observations

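Enzymes that act on the regulator proteins were a further list. Of 10 measured, 1 passed at 1 h, where 2.89% of all genes passed: Mapkapk3, a kinase that phosphorylates tristetraprolin and so holds back its activity, read 6.58, 6.55 and 6.58 in control and 6.33, 6.27 and 6.27 at 1 h (log2; difference -0.28 ± 0.047, SE; limma adjusted p 0.0151). That call was lost when control replicate 1 or 3 or B/B 1 h replicate 2 was omitted. After washout 3 were higher and 4 lower, where 14.5% of all genes were higher and 11.7% lower. Mapkapk3 then stood above control, at 6.83, 6.78 and 6.93, while its relative Mapkapk2 fell by 0.35 ± 0.054 (log2, SE; limma adjusted p 7.88e-04). Ikbkb, the kinase that marks Regnase-1 for destruction, rose by 0.34 ± 0.048, and Malt1, the protease that cleaves it, fell by 0.34 ± 0.077 (log2, SE). Proteins and their phosphorylation were not measured.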
